A study of Mus musculus with 6 samples.

Results

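The genes described here encode receptors with which myeloid cells sense microbes, damaged tissue, glycans, and antibodies, together with the adaptors that carry their signals. They were chosen by gene symbol alone: Toll-like receptors (Tlr), NOD-like receptors (Nlr), C-type lectin receptors (Clec), Siglecs, Cd300 receptors, Fc receptors (Fcgr, Fcer), paired Ig-like and leukocyte Ig-like receptors (Pira, Lilr), TREM receptors, the scavenger receptors *Marco* and *Msr1*, killer cell lectin-like receptors (Klr), genes beginning with Irak, and *Cd14*, *Pycard*, and *Tyrobp*. Of the 8191 genes in the expression table, 58 met this rule, namely 12 Clec, 8 Tlr, 6 Cd300, 5 Fc, 5 Ig-like, 5 Klr, 5 NOD-like receptor and *Pycard*, 4 Siglec, 4 TREM and *Tyrobp*, and 2 scavenger receptor genes, along with *Cd14* and *Irak1bp1*. The adaptor *Myd88*, the Irak kinases, and *Pirb* had no row in this table and were not analysed here. mRNA was sequenced from splenic myeloid-derived suppressor cells (MDSCs), immature myeloid cells that restrain T cells, to compare aged mice with and without the receptors for tumor necrosis factor. There were 3 genotypes with 2 samples each: WT BALB/c mice, *Tnfr1*-/- mice lacking TNFR1, and *Tnfr2*-/- mice lacking TNFR2, the knockouts also on a BALB/c background. Old mice were 18 to 24 months of age, MDSCs of 5 mice were pooled for each of 2 experiments, and the cells were neither treated nor cultured before RNA extraction. Both alleles are missing in the whole body, so the knockouts are not restricted to myeloid cells. According to the methods the cells were taken with a kit for MDSCs from spleen suspensions, and according to the labels by cell sorting.

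Innate recognition receptors fall into those that bind microbial or self ligands on the cell surface and those that do so in endosomes or the cytosol. Many of the lectin, Fc, Ig-like, and TREM receptors come in pairs: activating members have short tails and signal through the ITAM adaptors DAP12 (*Tyrobp*) and the Fc receptor gamma chain (*Fcer1g*), while inhibitory members carry ITIM motifs that recruit phosphatases. Neutrophils, monocytes, macrophages, and dendritic cells each carry a different set of them, so these genes also serve as markers of myeloid maturation.

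Levels are given as FPKM, a fragment number scaled by transcript length and by depth, which allows genes to be compared with each other. A change is the difference in log2(FPKM + 1) between group means, which understates the change of genes near 0, and it is given with its standard error (SE) from limma. A gene is called different, and said to have risen or fallen, where the Benjamini-Hochberg adjusted p over all 8191 genes was under 0.05 and the fold change over 1.5. Since the table lists only genes with an ANOVA p-value of at most 0.05 over the 3 genotypes, every gene in it had already been picked for a difference. All listed FPKM added up to 344714 and 346870 in WT and to between 133604 and 155248 in the 4 knockout samples, and values of WT samples had up to 10 digits against up to 7 in the knockouts. How the values were made and the genotype therefore cannot be told apart. Each comparison with WT was also computed after scaling the samples by median-ratio size factors, which moved the median change of all genes from -0.736 to -0.032 (*Tnfr2*-/-) and from -0.827 to -0.033 (*Tnfr1*-/-). *Tnfrsf1b*, which encodes TNFR2, had its lowest levels in *Tnfr2*-/- MDSCs (11.3 and 14.3 FPKM, against 47.8 and 69.6 FPKM in *Tnfr1*-/- and 111.8 and 114.9 FPKM in WT), whereas *Tnfrsf1a*, which encodes TNFR1, was not analysed here.

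The labelled cell type was checked against marker lists. Of the MDSC sort markers only *Ptprc* and *Ly6c1* were listed, and *Ly6c1*, a monocytic MDSC marker, stood at 0.159 and 0.0638 FPKM in the WT samples against 95.8 to 178 FPKM in the knockout samples, while the genes of CD11b and Ly6G were not analysed here. The 4 of 18 neutrophil markers listed summed to 32.8 to 40.0 FPKM (WT), 3074 to 3452 FPKM (*Tnfr1*-/-), and 1731 to 2733 FPKM in *Tnfr2*-/- MDSCs. The sum of the 15 of 17 macrophage markers listed ran the other way, with 5004 to 5504 FPKM (WT), 456 to 530 FPKM (*Tnfr1*-/-), and 806 to 870 FPKM in *Tnfr2*-/- MDSCs. Of these 15 markers, 14 were lower and 1, *Cd163*, was higher in each knockout, with 11 lower and 1 higher after median-ratio scaling. *Cd163* stood at 0.347 and 0.359 FPKM in WT and 1.67 to 2.38 FPKM in the knockouts. None of the listed markers of these lists was at 0 in both samples of a genotype. By these listed markers, the WT libraries carried little mRNA of granulocytic and Ly6C+ cells, against their label, and much mRNA of macrophages. A marker was listed only where its level differed between the genotypes, so the check leaves out markers that did not differ. The levels of the unlisted markers, most of the neutrophil list among them, are unknown here. In bulk samples, fewer cells of a type and less RNA per cell cannot be told apart, and the part of these markers in the results below was not tested.

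The 58 receptor and adaptor genes together held 6767 and 7001 FPKM in WT, 2181 and 2461 FPKM in *Tnfr1*-/-, and 2713 and 3054 FPKM in *Tnfr2*-/- MDSCs. As a share of all listed FPKM this was 1.95% and 2.03% in WT, 1.62% and 1.84% in *Tnfr1*-/-, and 1.75% and 2.05% in *Tnfr2*-/- MDSCs, so the shares of the genotypes overlapped in part. The make-up of the sum differed more. Clec genes held 29.1% and 30.3% of it in the WT samples and 10.4% to 13.4% in the knockout samples, and scavenger receptors held 6.35% and 6.67% against 0.17% to 0.394%. TREM genes with *Tyrobp* held 13.1% and 13.6% in WT and 42.0% to 46.0% in the knockouts, mainly through *Tyrobp*. The Fc receptors kept a similar share throughout, 18.1% and 18.7% in WT and 15.5% to 17.9% in the knockouts.

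**Figure D1:**
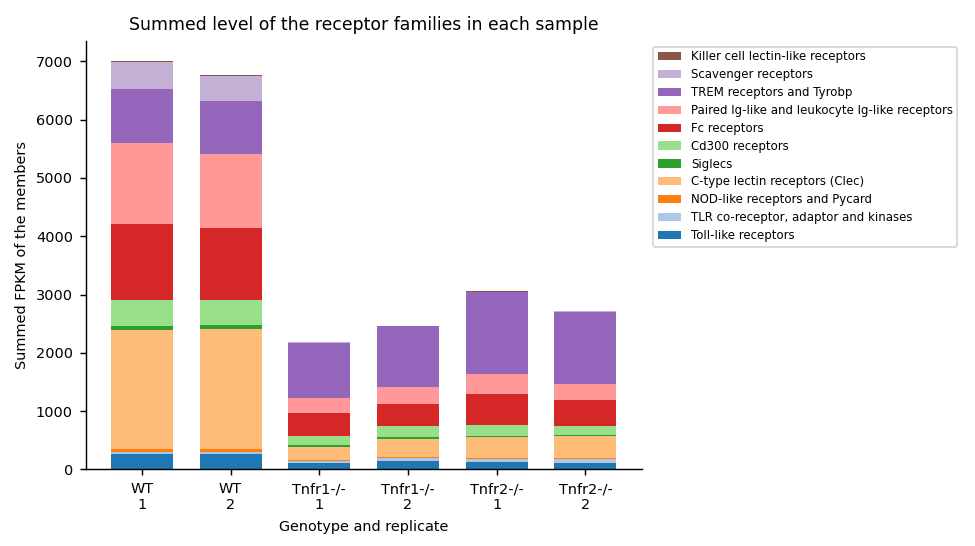
Summed FPKM of the members of each family in each of the 6 samples (bars stacked by family, x axis genotype and replicate, no error bars since each bar is 1 sample). The WT bars reach 6767 and 7001 FPKM and the knockout bars 2181 to 3054 FPKM, and the Clec and scavenger receptor segments are smaller in the knockouts. The TREM and *Tyrobp* segment is not smaller there, with 919 and 920 FPKM in WT and 944.5 to 1406 FPKM in the knockouts.

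In *Tnfr2*-/- against WT MDSCs, 15 of the 58 genes rose and 35 fell, which is 25.9% and 60.3% of them. Over all 8191 genes 13.6% were called higher and 57.1% lower, so as deposited the share of falls was near the background and the share of rises was above it. The median change of the members was -1.07 against -0.736 for all genes. After median-ratio scaling 16 rose (27.6%) and 22 fell (37.9%), against 21.8% of all genes higher and 21.0% lower, with a median of -0.31 for the members. With this scaling the share of falls was above the background as well. In *Tnfr1*-/- against WT MDSCs, 15 rose and 35 fell as well, beside 14.1% and 60.7% of all genes, and the median change was -1.28 against -0.827. With median-ratio scaling 17 rose (29.3%) and 25 fell (43.1%) in this comparison, beside 23.3% and 22.1% of all genes. This scaling ended 13 calls in *Tnfr2*-/- MDSCs, all of them falls, namely those of *Cd300ld*, *Cd300lf*, *Clec9a*, *Clec10a*, *Fcer1a*, *Fcer1g*, *Fcgr2b*, *Fcgr3*, *Klra3*, *Nlrc4*, *Pycard*, *Tlr4*, and *Tlr8*. In *Tnfr1*-/- MDSCs it ended 10 calls, also falls, those of *Cd300a*, *Cd300c*, *Cd300ld*, *Clec4a2*, *Fcer1a*, *Fcgr2b*, *Fcgr3*, *Nlrc4*, *Tlr4*, and *Tlr8*. Both comparisons use the same 2 WT samples. Called in the same direction with FPKM as deposited, median-ratio scaling, and quantile normalization were 15 rises and 21 falls in *Tnfr2*-/- MDSCs and 15 rises and 24 falls in *Tnfr1*-/- MDSCs. How many of all genes meet this was not computed. Quantile normalization alone called 1685 of the 8191 genes higher and 1850 lower in *Tnfr2*-/- MDSCs, and 1738 and 2058 in *Tnfr1*-/- MDSCs. The sign of the change differed between these 3 scalings for 6 genes in *Tnfr2*-/- MDSCs (*Cd300a*, *Cd300lf*, *Clec16a*, *Klrc2*, *Nlrp10*, and *Tlr4*) and for 5 genes in *Tnfr1*-/- MDSCs (the same genes without *Klrc2*).

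**Figure D2:**
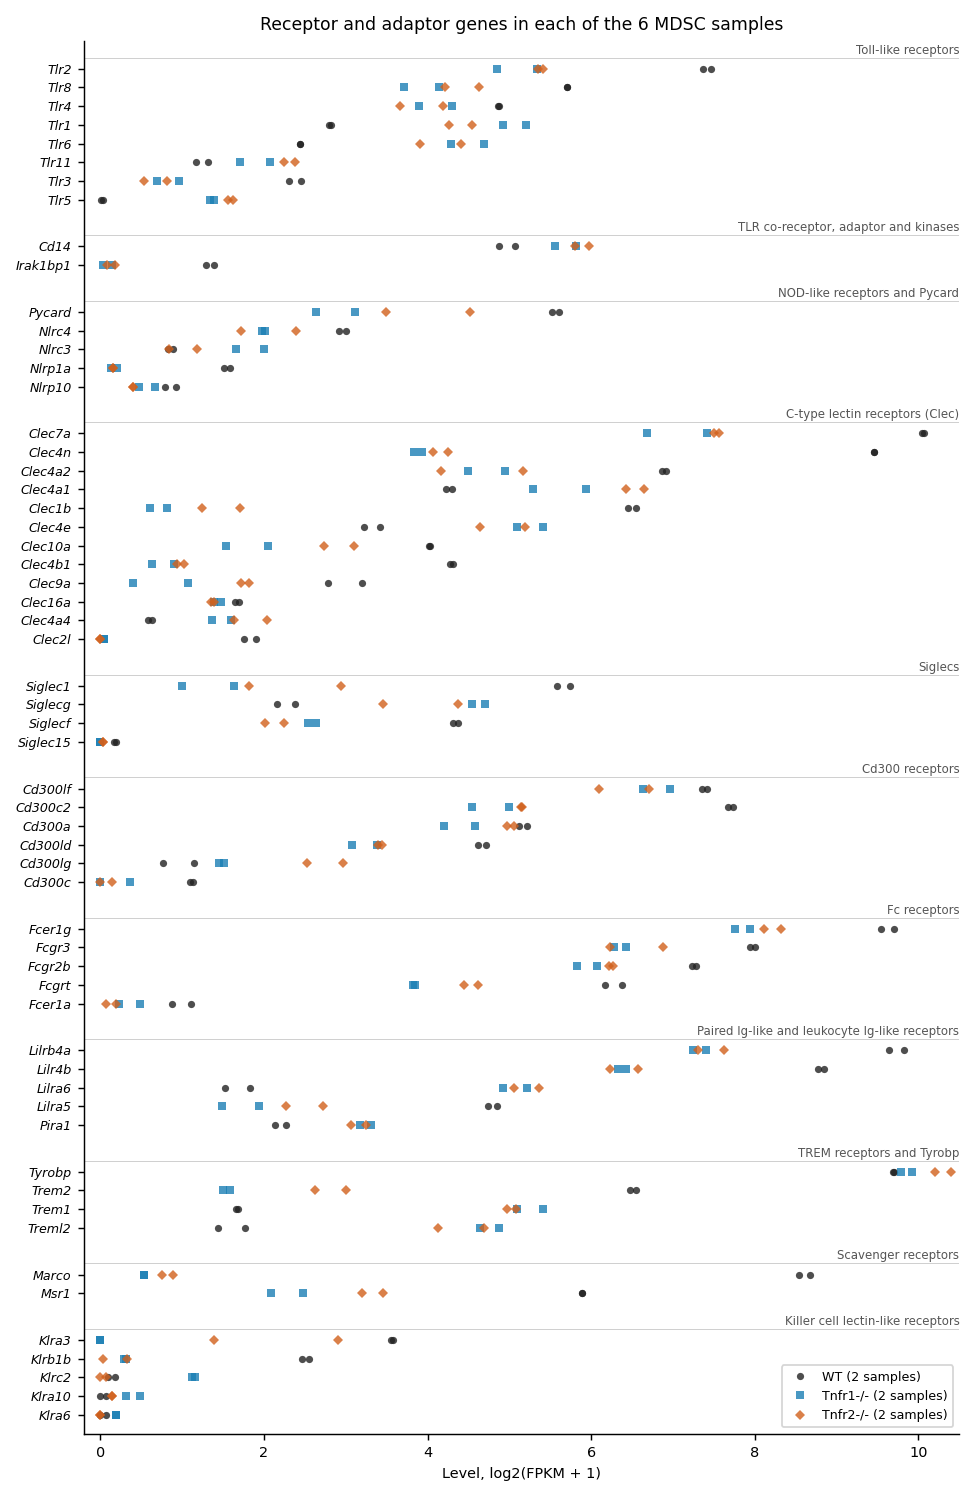
Level of each of the 58 genes as log2(FPKM + 1) (x axis) in each of the 6 samples, ordered by family and by mean FPKM (y axis), with 1 point for each sample and colors for the genotypes. The WT points mostly stand apart from the knockout points, to the right for *Marco*, *Clec4n*, and *Trem2* and to the left for *Trem1*, *Treml2*, *Lilra6*, and *Tlr5*, while *Tnfr1*-/- and *Tnfr2*-/- points lie near each other.

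Toll-like receptors, which recognize lipids, proteins, and nucleic acids of microbes, divided evenly. Of the 8 listed, 4 (*Tlr1*, *Tlr5*, *Tlr6*, and *Tlr11*) rose and 4 (*Tlr2*, *Tlr3*, *Tlr4*, and *Tlr8*) fell in each knockout against WT, where *Tlr4* and *Tlr8* were not called after median-ratio scaling. As deposited, 13.6% of all genes rose and 57.1% fell in *Tnfr2*-/-, and 14.1% and 60.7% in *Tnfr1*-/- MDSCs. *Tlr2*, the shared partner in lipoprotein receptors, was measured at 164 and 175 FPKM in the WT, 27.9 and 39.3 FPKM in the *Tnfr1*-/-, and 39.8 and 41.4 FPKM in the *Tnfr2*-/- samples. All 4 knockout values lay below both WT values, and the change in *Tnfr2*-/- MDSCs was -2.04 (SE 0.17, adjusted p = 0.000300). *Tlr1* and *Tlr6*, which pair with TLR2 to bind triacylated and diacylated lipoproteins, moved the other way. *Tlr1* stood at 5.93 and 6.07 FPKM in WT, 29.4 and 35.7 FPKM in *Tnfr1*-/-, and 18.1 and 22.2 FPKM in *Tnfr2*-/- samples, a rise of 1.59 (SE 0.14, adjusted p = 0.000360) in *Tnfr2*-/- MDSCs. *Tlr6* stood at 4.40 and 4.43 FPKM in WT, 18.5 and 24.8 FPKM in *Tnfr1*-/-, and 20.2 and 14 FPKM in *Tnfr2*-/- samples. The ratio of *Tlr1* to *Tlr2* within a sample, which scaling by 1 factor per sample does not alter, was 0.0347 and 0.0361 in WT, 0.908 and 1.05 in *Tnfr1*-/-, and 0.454 and 0.536 in *Tnfr2*-/- MDSCs, so the genotypes did not overlap. *Tlr1* and *Tlr6* lie 1 after the other on chr5:64924679-64960097, and 15.4% and 12.3% of their 50-base windows also occur in other genes, so that part of their reads may be shared between them.

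*Tlr5*, the receptor for flagellin, was close to 0 in WT at 0.0255 and 0.00851 FPKM and reached 1.62 and 1.54 FPKM in *Tnfr1*-/- and 2.06 and 1.94 FPKM in *Tnfr2*-/- samples. Its level remained low in the knockouts, but the groups were far apart, with a rise of 1.56 (SE 0.04, adjusted p = 1.49e-05) in *Tnfr2*-/- MDSCs. *Tlr11*, which binds profilin of parasites in endosomes, rose by 1.07 (*Tnfr2*-/-) and 0.65 (*Tnfr1*-/-). *Tlr8*, an endosomal receptor of RNA, was listed at 51.1 and 51.2 FPKM in WT, 12.1 and 16.6 FPKM in *Tnfr1*-/-, and 23.8 and 17.6 FPKM in *Tnfr2*-/- samples. It fell in both knockouts, with -1.28 (SE 0.20, adjusted p = 0.00225) in *Tnfr2*-/- MDSCs, but was not called after median-ratio scaling (-0.32 in *Tnfr2*-/- and -0.68 in *Tnfr1*-/-). *Tlr3*, the endosomal receptor of double-stranded RNA, fell by 1.71 on the log2 scale in *Tnfr2*-/- MDSCs. *Tlr4*, the receptor for lipopolysaccharide, was listed at 27.9 and 28.3 FPKM in WT, 13.9 and 18.6 FPKM in *Tnfr1*-/-, and 17.3 and 11.7 FPKM in *Tnfr2*-/- samples, and its change of -0.93 (SE 0.22, adjusted p = 0.0100) in *Tnfr2*-/- MDSCs turned to a change of 0.01 after median-ratio scaling. *Cd14*, which hands lipopolysaccharide to TLR4, went up from 32.6 and 28.2 FPKM (WT) to 46.2 and 55.3 FPKM in *Tnfr1*-/- and 54.6 and 61.8 FPKM in *Tnfr2*-/- samples. Its rise of 0.91 (SE 0.13, adjusted p = 0.00181) in *Tnfr2*-/- MDSCs was 1.88 after median-ratio scaling. *Irak1bp1*, whose product binds the kinase IRAK1, was low in all samples, at 1.45 and 1.62 FPKM in WT and 0.0255 to 0.134 FPKM in the knockouts, and fell in both (change -1.21, SE 0.06, adjusted p = 6.84e-05 in *Tnfr2*-/-).

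Among the cytosolic NOD-like receptors and *Pycard*, 3 of 5 fell in *Tnfr2*-/- MDSCs and none rose, while after median-ratio scaling *Nlrp1a* was the 1 that fell. Beside this, 57.1% of all genes were lower as deposited and 21.0% after median-ratio scaling. *Pycard* encodes ASC, the adaptor that joins inflammasome sensors to caspase-1. It was measured at 47.7 and 44.8 FPKM in WT, 7.66 and 5.21 FPKM in *Tnfr1*-/-, and 10.2 and 22 FPKM in *Tnfr2*-/- samples. The *Tnfr2*-/- samples differed widely from each other, and the change of -1.55 (SE 0.37, adjusted p = 0.0105) was not called after median-ratio scaling (-0.60). *Nlrc4*, which detects flagellin and secretion systems with NAIP proteins, fell from 7.0 and 6.51 FPKM to 2.94 and 3.02 FPKM in *Tnfr1*-/- and 2.29 and 4.24 FPKM in *Tnfr2*-/- samples. Its change of -0.90 (SE 0.23, adjusted p = 0.0135) in *Tnfr2*-/- MDSCs was -0.09 after median-ratio scaling, where it was called in neither knockout. *Nlrc3*, a restraint on innate signalling, stood at 0.847 and 0.772 FPKM in WT, 2.15 and 2.99 FPKM in *Tnfr1*-/-, and 1.26 and 0.793 FPKM in *Tnfr2*-/- samples. It rose in *Tnfr1*-/- MDSCs (0.97, SE 0.16, adjusted p = 0.00263) and was not called in *Tnfr2*-/- MDSCs (0.15, SE 0.16, adjusted p = 0.389), while the difference between the knockouts, -0.82 (SE 0.16, adjusted p = 0.0705), did not pass the threshold. *Nlrp1a*, an inflammasome sensor, fell from 1.99 and 1.84 FPKM in WT to 0.115 and 0.108 FPKM in *Tnfr2*-/- samples, and the call held with changes of -1.39 as deposited, -0.92 after median-ratio scaling, and -0.77 after quantile normalization.

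C-type lectin receptors, which bind glycans and other ligands of fungi, bacteria, and dying cells, numbered 12, of which 8 were lower and 3 higher in each knockout, beside 57.1% (*Tnfr2*-/-) and 60.7% (*Tnfr1*-/-) of all genes lower. After median-ratio scaling 6 were lower in *Tnfr2*-/- and 7 in *Tnfr1*-/- MDSCs, beside 21.0% and 22.1% of all genes, and 3 were higher in each. *Clec7a*, the gene of the beta-glucan receptor Dectin-1, had the highest level of all 58 genes in WT with 1050 and 1073 FPKM, against 102 and 169.6 FPKM in *Tnfr1*-/- and 179.8 and 188 FPKM in *Tnfr2*-/- samples. Its change in *Tnfr2*-/- MDSCs was -2.52 (SE 0.25, adjusted p = 0.000550), and no knockout sample reached the WT levels. *Clec4n* encodes Dectin-2, a receptor for mannans that signals through *Fcer1g*. It stood at 702 and 702 FPKM in WT, 14.2 and 13.2 FPKM in *Tnfr1*-/-, and 15.7 and 18 FPKM in *Tnfr2*-/- samples, so that means were 41.7-fold lower in *Tnfr2*-/- MDSCs (change -5.30, SE 0.09, adjusted p = 5.75e-06). *Clec1b*, the gene of CLEC-2, a receptor for podoplanin also known from platelets, was found at 92.3 and 86.5 FPKM in WT, 0.525 and 0.756 FPKM in *Tnfr1*-/-, and 2.26 and 1.35 FPKM in *Tnfr2*-/- samples. Its change in *Tnfr2*-/- MDSCs was -5.03 (SE 0.18, adjusted p = 2.85e-05), and *Pf4*, the 1 platelet marker listed of 5, stood at 104 to 118 FPKM in WT and 3.12 to 4.30 FPKM in the knockouts. The part of platelet mRNA was not tested.

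Within the cluster of 6 Clec4 genes on chr6:122921848-123289870 (GRCm38), neighbours moved in opposite directions. *Clec4e*, *Clec4a1*, and *Clec4a4* rose and *Clec4n*, *Clec4a2*, and *Clec4b1* fell in both knockouts, although the fall of *Clec4a2* in *Tnfr1*-/- MDSCs was not called after median-ratio scaling (-1.05, adjusted p = 0.0646). *Clec4e* encodes Mincle, a receptor for mycobacterial glycolipids that uses the same adaptor as Dectin-2. It was listed at 9.69 and 8.34 FPKM in WT, 33 and 41.5 FPKM in *Tnfr1*-/-, and 35.5 and 24 FPKM in *Tnfr2*-/- samples, a rise of 1.60 (SE 0.22, adjusted p = 0.00156). The ratio of *Clec4e* to *Clec4n* within a sample was 0.0119 and 0.0138 in WT, 2.32 and 3.14 in *Tnfr1*-/-, and 1.34 and 2.26 in *Tnfr2*-/- MDSCs. The WT samples thus had far more Dectin-2 than Mincle mRNA, and all knockout samples had more Mincle mRNA. *Clec4a2*, an inhibitory receptor (DCIR), stood at 115 and 119 FPKM in WT, 29.8 and 21.4 FPKM in *Tnfr1*-/-, and 34.8 and 17 FPKM in *Tnfr2*-/- samples, and its change in *Tnfr2*-/- MDSCs was -2.22 (SE 0.36, adjusted p = 0.00260). Its relative *Clec4a1* (DCIR4) stood at 17.7 and 18.7 FPKM in WT, 38.2 and 60.4 FPKM in *Tnfr1*-/-, and 84.6 and 99.2 FPKM in *Tnfr2*-/- samples. Inhibitory and activating members of the cluster were therefore found on both sides. *Clec9a*, a receptor for exposed actin filaments on cross-presenting dendritic cells, and *Clec10a*, a galactose-type lectin, fell in *Tnfr2*-/- MDSCs, with changes of -1.22 and -1.11. Neither was called there after median-ratio scaling (-0.42 and -0.20), and the 10 of 12 dendritic cell markers listed summed to 6837 to 7197 FPKM in WT against 1069 to 1822 FPKM in the knockouts. *Cd74* alone stood at 3386 and 3594 FPKM in WT. Of these 10 markers, 7 were called lower and 1, *Flt3*, higher in *Tnfr2*-/- MDSCs. *Flt3* went from 0.156 and 0.260 FPKM in WT to 1.21 to 2.34 FPKM in the knockouts. The part of dendritic cells in the *Clec9a* and *Clec10a* results was not tested.

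Siglecs bind sialic acids. *Siglec1*, the sialoadhesin of tissue macrophages, was measured at 46.8 and 52.5 FPKM in WT, 0.998 and 2.09 FPKM in *Tnfr1*-/-, and 2.51 and 6.70 FPKM in *Tnfr2*-/- samples, and its change in *Tnfr2*-/- MDSCs was -3.28 (SE 0.42, adjusted p = 0.00126). *Siglecf*, an inhibitory receptor of eosinophils and some macrophages, stood at 19.7 and 18.8 FPKM in WT, 4.81 and 5.23 FPKM in *Tnfr1*-/-, and 3.73 and 3.04 FPKM in *Tnfr2*-/- samples (change -2.21, SE 0.11, adjusted p = 7.12e-05 in *Tnfr2*-/-). The 8 of 9 listed markers of eosinophils, basophils, and mast cells summed to 56.2 to 59.2 FPKM (WT), 20.6 to 27.2 FPKM (*Tnfr1*-/-), and 6.06 to 13.1 FPKM in *Tnfr2*-/- MDSCs, where *Epx* was at 0 in both samples. Of these markers only *Ccr3* was called higher in the knockouts. It stood at 0.139 and 0.0928 FPKM in WT, 8.82 and 10.7 FPKM in *Tnfr1*-/-, and 9.86 and 4.60 FPKM in *Tnfr2*-/- samples. *Siglecg*, an inhibitory receptor best known from B cells, rose from 4.18 and 3.45 FPKM (WT) to 25 and 22.4 FPKM in *Tnfr1*-/- and 10 and 19.8 FPKM in *Tnfr2*-/- samples (1.66, SE 0.31, adjusted p = 0.00467 for *Tnfr2*-/-). The 6 of 11 B and plasma cell markers listed went up as well, from 211 to 245 FPKM (WT) to 1203 to 1835 FPKM in *Tnfr1*-/- and 2338 to 2355 FPKM in *Tnfr2*-/- MDSCs. The part of these cells in the *Siglecf* and *Siglecg* results was not tested. *Siglec15* was under 0.2 FPKM in every sample.

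Cd300 receptors bind lipids and come as activating and inhibitory members. Of the 6 listed, 4 fell and *Cd300lg* rose in *Tnfr2*-/- MDSCs, whereas after median-ratio scaling *Cd300c2* and *Cd300c* fell and *Cd300lg* and *Cd300a* rose. Over all genes 13.6% rose and 57.1% fell as deposited, and 21.8% and 21.0% after median-ratio scaling. *Cd300ld* fell as deposited in both knockouts (-1.25 and -1.44) and was called in neither after median-ratio scaling (-0.31 and -0.38). *Cd300c2*, an activating member, was listed at 211 and 203 FPKM in WT, 22.3 and 31 FPKM in *Tnfr1*-/-, and 34.6 and 34.3 FPKM in *Tnfr2*-/- samples. It was the member of this family whose fall was called under every scaling in both knockouts, with -2.56 (SE 0.16, adjusted p = 0.000127) in *Tnfr2*-/- MDSCs. *Cd300lf*, an inhibitory receptor, stood at 170.3 and 163 FPKM in WT, 98.3 and 124 FPKM in *Tnfr1*-/-, and 104 and 67.5 FPKM in *Tnfr2*-/- samples. Its change of -0.99 (SE 0.23, adjusted p = 0.0102) in *Tnfr2*-/- MDSCs was a change of 0.0001444 after median-ratio scaling, and in *Tnfr1*-/- MDSCs it was not called (-0.59, SE 0.23, adjusted p = 0.0554). *Cd300a*, also inhibitory, stood at 36.1 and 33.8 FPKM in WT, 17.3 and 23 FPKM in *Tnfr1*-/-, and 32.2 and 30.3 FPKM in *Tnfr2*-/- samples. Its change was -0.15 in *Tnfr2*-/- (SE 0.14, adjusted p = 0.334) and -0.78 in *Tnfr1*-/- MDSCs (SE 0.14, adjusted p = 0.00383), and positive after median-ratio scaling (0.81 and 0.32). Between these neighbours, the ratio of *Cd300lf* to *Cd300c2* was 0.802 and 0.806 in WT, 4.0 and 4.41 in *Tnfr1*-/-, and 1.97 and 2.99 in *Tnfr2*-/- MDSCs. *Cd300lg*, known from endothelium and low in these samples, stood at 0.703 and 1.21 FPKM in WT, 1.86 and 1.72 FPKM in *Tnfr1*-/-, and 4.77 and 6.83 FPKM in *Tnfr2*-/- samples. As deposited it was called in *Tnfr2*-/- MDSCs (1.79) and not in *Tnfr1*-/- MDSCs (0.52), and it was called higher in both after median-ratio scaling (2.32 and 1.11). The difference between the knockouts was 1.27 with adjusted p = 0.0507.

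All 5 Fc receptor genes, which couple antibodies to phagocytosis and signalling, fell in both knockouts, and most of these calls depended on the scaling. They stand beside 57.1% (*Tnfr2*-/-) and 60.7% (*Tnfr1*-/-) of all genes lower as deposited, and 21.0% and 22.1% after median-ratio scaling. *Fcer1g*, the signalling chain shared by activating Fc receptors, Dectin-2, and Mincle, was measured at 830.4 and 745 FPKM in WT, 244 and 216 FPKM in *Tnfr1*-/-, and 319 and 275 FPKM in *Tnfr2*-/- samples. *Fcgr3*, a low-affinity activating IgG receptor, stood at 254 and 244 FPKM in WT, 76.7 and 85.2 FPKM in *Tnfr1*-/-, and 116 and 73.9 FPKM in *Tnfr2*-/- samples. *Fcgr2b*, the inhibitory IgG receptor, stood at 149 and 154 FPKM in WT, 55.8 and 66.1 FPKM in *Tnfr1*-/-, and 73.3 and 75.9 FPKM in *Tnfr2*-/- samples. WT samples were highest for each of these genes, and the changes in *Tnfr2*-/- MDSCs were -1.41, -1.42, and -1.01 (SE 0.15, 0.22, and 0.10), with adjusted p = 0.000635, 0.00247, and 0.000552. After median-ratio scaling they were -0.41, -0.43, and -0.03, and none of them was called in *Tnfr2*-/- MDSCs. The ratio of activating *Fcgr3* to inhibitory *Fcgr2b* was 1.58 and 1.71 in WT, 1.29 and 1.37 in *Tnfr1*-/-, and 0.974 and 1.58 in *Tnfr2*-/- samples, where the *Tnfr2*-/- samples spanned the *Tnfr1*-/- ones and reached up to the lower WT value. *Fcgrt*, which encodes the neonatal Fc receptor that recycles IgG and albumin, was the exception, with 71 and 81.7 FPKM in WT, 13.4 and 13.1 FPKM in *Tnfr1*-/-, and 20.7 and 23.6 FPKM in *Tnfr2*-/- samples. Its fall was called under every scaling in both knockouts (-1.74, SE 0.10, adjusted p = 0.000113, and -0.77 after median-ratio scaling for *Tnfr2*-/-). *Fcer1a*, the IgE receptor subunit of mast cells and basophils, was at or under 1.15 FPKM in every sample, and its falls (-0.87 and -0.64) were not called after median-ratio scaling (-0.53 and -0.22).

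The Ig-like receptors split by member. *Lilrb4a*, an inhibitory receptor (gp49B), stood at 901 and 799 FPKM in WT, 151 and 168 FPKM in *Tnfr1*-/-, and 196 and 158 FPKM in *Tnfr2*-/- samples. *Lilr4b* (gp49A), next to it on chromosome 10, stood at 458 and 435 FPKM in WT, 79.5 and 84.5 FPKM in *Tnfr1*-/-, and 93.7 and 73.9 FPKM in *Tnfr2*-/- samples. Both fell, with changes of -2.27 (SE 0.16, adjusted p = 0.000174) and -2.41 (SE 0.14, adjusted p = 9.73e-05) in *Tnfr2*-/- MDSCs, but 47.2% and 24.5% of their 50-base windows also occur in other genes, and their reads may not be fully separable. *Lilra5*, an activating receptor, fell, with changes of -2.30 in *Tnfr2*-/- and -3.08 in *Tnfr1*-/- MDSCs. *Lilra6*, an activating receptor of the PIR-A kind, showed the largest rise of the 58 genes in *Tnfr2*-/- MDSCs on the log2(FPKM + 1) scale, whereas by the fold of means *Tlr5*, near 0 in WT, was higher (118-fold). It was listed at 2.54 and 1.87 FPKM in WT, 29.4 and 36.1 FPKM in *Tnfr1*-/-, and 40.04 and 32.4 FPKM in *Tnfr2*-/- samples, and means were 16.4-fold higher in *Tnfr2*-/- than in WT (change 3.54, SE 0.18, adjusted p = 6.96e-05). The closely related *Pira1* rose less, from 3.82 and 3.37 FPKM (WT) to 8.87 and 8.04 FPKM in *Tnfr1*-/- and 8.47 and 7.36 FPKM in *Tnfr2*-/- samples. Of the 50-base windows of *Lilra6*, 31.3% occur in other genes, so the split between PIR-A genes is uncertain.

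TREM receptors changed in opposite directions while their adaptor DAP12 stayed abundant. *Trem1* amplifies inflammatory signals on neutrophils and monocytes, whereas *Trem2* binds lipids on macrophages, and both signal through DAP12. *Trem1* stood at 2.20 and 2.15 FPKM in WT, 33.1 and 41.6 FPKM in *Tnfr1*-/-, and 32.8 and 30.2 FPKM in *Tnfr2*-/- samples, a rise of 3.35 (SE 0.13, adjusted p = 3.15e-05) in *Tnfr2*-/- and 3.59 in *Tnfr1*-/- MDSCs. *Trem2* stood at 87.9 and 92.1 FPKM in WT, 1.99 and 1.82 FPKM in *Tnfr1*-/-, and 5.15 and 6.98 FPKM in *Tnfr2*-/- samples, a change of -3.70 (SE 0.14, adjusted p = 3.35e-05) in *Tnfr2*-/- and -4.97 in *Tnfr1*-/- MDSCs. No sample of WT overlapped with a knockout sample for either gene. The ratio of *Trem1* to *Trem2* within a sample was 0.0234 and 0.0250 in WT, 16.7 and 22.9 in *Tnfr1*-/-, and 4.32 and 6.37 in *Tnfr2*-/- MDSCs, so that all 3 genotypes stood apart. *Treml2*, which lies between them on chr17:48232768-48354147, rose with *Trem1*, from 2.42 and 1.70 FPKM (WT) to 28.4 and 23.9 FPKM in *Tnfr1*-/- and 24.8 and 16.5 FPKM in *Tnfr2*-/- samples. Its change in *Tnfr2*-/- MDSCs was 2.81 (SE 0.23, adjusted p = 0.000297). *Tyrobp* was the most abundant of the 58 genes in all 4 knockout samples, with 828 and 823 FPKM in WT, 881 and 967 FPKM in *Tnfr1*-/-, and 1343 and 1178 FPKM in *Tnfr2*-/- samples. It rose in *Tnfr2*-/- MDSCs (0.61, SE 0.20, adjusted p = 0.0299) and was not called in *Tnfr1*-/- MDSCs as deposited (0.16, adjusted p = 0.454), while after median-ratio scaling it was called higher in both (1.60 and 1.30). Its call in *Tnfr2*-/- MDSCs as deposited was lost without WT replicate 1 (0.61, adjusted p = 0.222), without WT replicate 2 (0.60, adjusted p = 0.230), and without *Tnfr2*-/- replicate 1, where the change of 0.51 was under the fold threshold. The difference between the knockouts was 0.45 (adjusted p = 0.252). Against the other ITAM adaptor, the ratio of *Tyrobp* to *Fcer1g* was 0.997 and 1.10 in WT, 3.61 and 4.48 in *Tnfr1*-/-, and 4.21 and 4.28 in *Tnfr2*-/- MDSCs. The neutrophil and macrophage marker sums given above moved with these genes in the same samples, and their part was not tested.

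**Figure D3:**
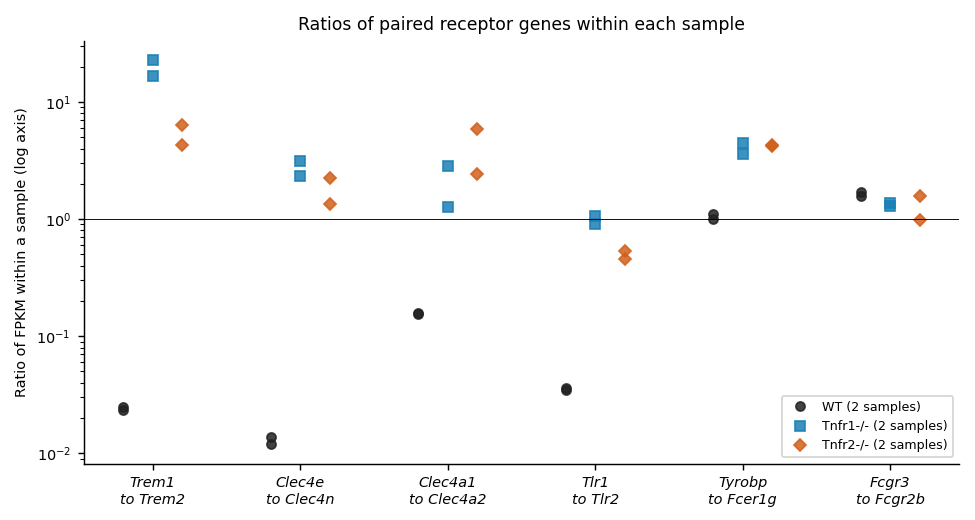
Ratio of the FPKM of 2 genes within a sample (y axis, log scale) for 6 pairs of related receptors or adaptors (x axis), with 1 point for each of the 6 samples and no error bars. WT samples lie below all knockout samples for *Trem1* to *Trem2*, *Clec4e* to *Clec4n*, *Clec4a1* to *Clec4a2*, *Tlr1* to *Tlr2*, and *Tyrobp* to *Fcer1g*, and not for *Fcgr3* to *Fcgr2b*. The pairs were chosen after their values were seen.

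The scavenger receptors, which take up modified lipoproteins and particles, both fell. *Marco* was measured at 409 and 372 FPKM in WT, 0.451 and 0.450 FPKM in *Tnfr1*-/-, and 0.854 and 0.680 FPKM in *Tnfr2*-/- samples. Every knockout value was under 1 FPKM, far below WT, and the change of -7.79 (SE 0.09, adjusted p = 5.35e-06) in *Tnfr2*-/- MDSCs was the largest among the 58 genes on the log2(FPKM + 1) scale. *Msr1* stood at 58 and 58.1 FPKM in WT, 3.26 and 4.55 FPKM in *Tnfr1*-/-, and 8.14 and 10 FPKM in *Tnfr2*-/- samples, and fell, with changes of -2.56 (SE 0.16, adjusted p = 0.000134) in *Tnfr2*-/- and -3.60 in *Tnfr1*-/- MDSCs.

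Killer cell lectin-like receptors, best known from natural killer cells, were low. None of the 8 natural killer cell markers was in the table, so their level could not be set beside these genes. *Klra3*, an inhibitory Ly49 receptor, stood at 10.9 and 10.7 FPKM in WT and 6.51 and 1.62 FPKM in *Tnfr2*-/- samples, which differed widely, and was listed at 0 in both *Tnfr1*-/- samples. It fell in both knockouts, and the change in *Tnfr2*-/- MDSCs (-1.41, SE 0.49, adjusted p = 0.0382) was not called after median-ratio scaling (-0.55). *Klrb1b*, an inhibitory receptor for a Clec2 ligand, fell from 4.50 and 4.84 FPKM (WT) to 0.222 and 0.238 FPKM in *Tnfr1*-/- and 0.251 and 0.0194 FPKM in *Tnfr2*-/- samples (change -2.33, SE 0.10, adjusted p = 5.18e-05 in *Tnfr2*-/-). *Klra6* and *Klra10* stayed under 0.4 FPKM in every sample. Of the windows of *Klra10*, *Klrb1b*, *Klra3*, and *Klrc2*, 39.8%, 27.2%, 20.7%, and 16.3% occur in other genes, so values of these genes are uncertain.

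**Figure D4:**
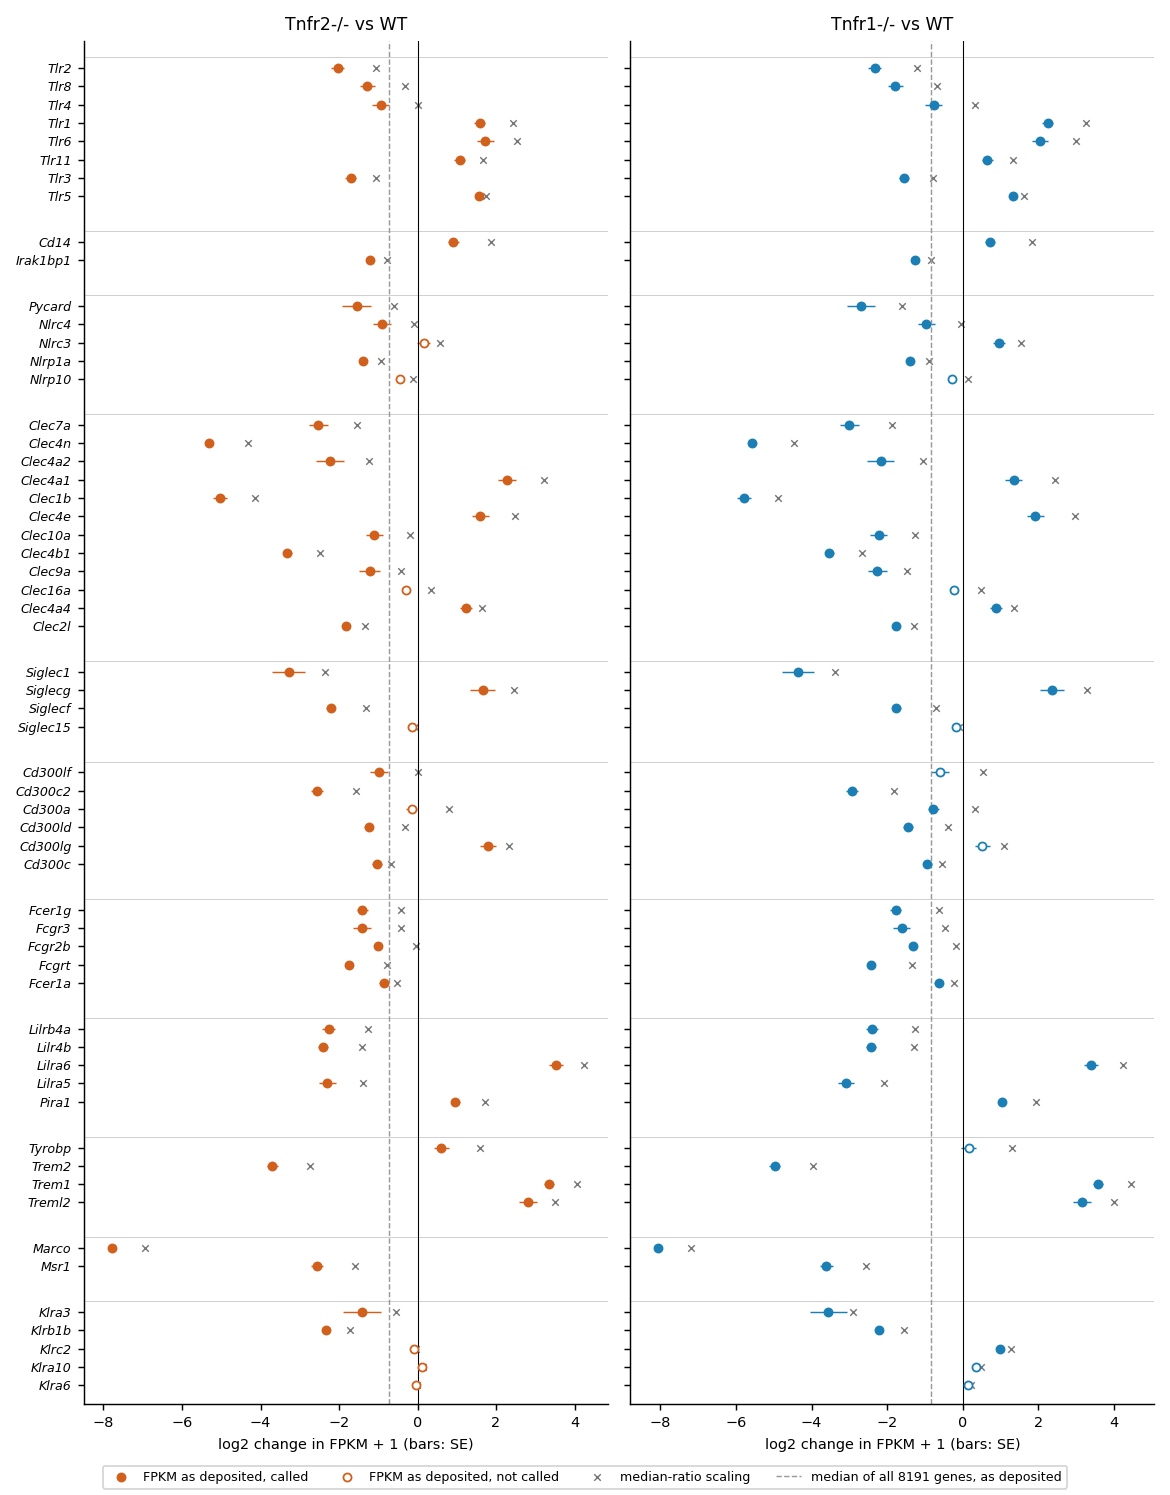
Change of each of the 58 genes in *Tnfr2*-/- (left) and *Tnfr1*-/- (right) against WT MDSCs as the difference in log2(FPKM + 1) (x axis) with its SE, 2 samples per genotype, in which filled points were called, open points were not, and crosses give the change after median-ratio scaling. The dashed lines mark the median of all 8191 genes (-0.736 and -0.827), and the points run from -7.79 (*Marco*) to 3.54 (*Lilra6*) on the left.

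Sorted by signalling type with lists of known receptors, 16 of 33 activating and 10 of 31 inhibitory receptors were listed. Of the activating ones 4 rose and 11 fell in *Tnfr2*-/- MDSCs (median -1.24), and of the inhibitory ones 2 rose and 7 fell (median -1.21), beside 13.6% and 57.1% of all genes and a median of -0.736. After median-ratio scaling 4 activating receptors rose and 7 fell (median -0.48), and 3 inhibitory ones rose and 4 fell (median -0.29), beside 21.8% and 21.0% of all genes and a median of -0.032. The summed level of the activating receptors was 2476 to 2478 FPKM (WT), 334 to 443 FPKM (*Tnfr1*-/-), and 434 to 487 FPKM in *Tnfr2*-/- MDSCs, and that of the inhibitory ones was 1326 to 1429 FPKM, 421 to 490 FPKM, and 472 to 545 FPKM. By place, all 5 cell surface TLRs on the list were present, 3 higher and 2 lower, and 3 of 7 endosomal ones, 1 higher and 2 lower in *Tnfr2*-/- MDSCs, and in each place 1 of the falls was not called after median-ratio scaling.

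The comparison of the knockouts with each other called few of these genes. Its changes come from the knockout samples alone, but its tests use a spread estimated over all 6 samples, WT included. Of the 58, 2 were higher and 1 was lower in *Tnfr2*-/- than in *Tnfr1*-/- MDSCs, beside 0.842% and 0.61% of all genes. An unadjusted p under 0.05 was found for 23 of the 58 genes and for 1962 of all 8191. *Trem2*, at the values given above, was 3.19-fold higher by means (change 1.27, SE 0.14, adjusted p = 0.0375), and *Fcgrt* was 1.67-fold higher (change 0.69, SE 0.10, adjusted p = 0.0486). *Klrc2*, the activating receptor NKG2C, had levels of 1.23 and 1.17 FPKM in *Tnfr1*-/-, 0.0511 and 0 FPKM in *Tnfr2*-/-, and 0.131 and 0.0658 FPKM in WT samples. It was the gene lower in *Tnfr2*-/- MDSCs (change -1.10, SE 0.04, adjusted p = 0.00538), with the *Tnfr1*-/- samples above all others and every value at or under 1.23 FPKM. Both *Trem2* and *Fcgrt* had WT levels above both knockouts, so their order was WT, *Tnfr2*-/-, *Tnfr1*-/-. With only the 2 genotypes compared in the model none of the 3 was called (adjusted p = 0.16 for *Trem2* and *Fcgrt* and 0.073 for *Klrc2*). There 20 of the 58 genes had an unadjusted p under 0.05, beside 1436 of all 8191. Median-ratio scaling gave 3 genes higher (*Trem2*, *Cd300lg*, and *Msr1*) and 2 lower (*Klrc2* and *Tlr1*), beside 1.09% and 1.45% of all genes. Without *Tnfr2*-/- replicate 1 there were 8 higher and 2 lower genes, and without either WT sample or either *Tnfr1*-/- sample none was higher.

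**Figure D5:**
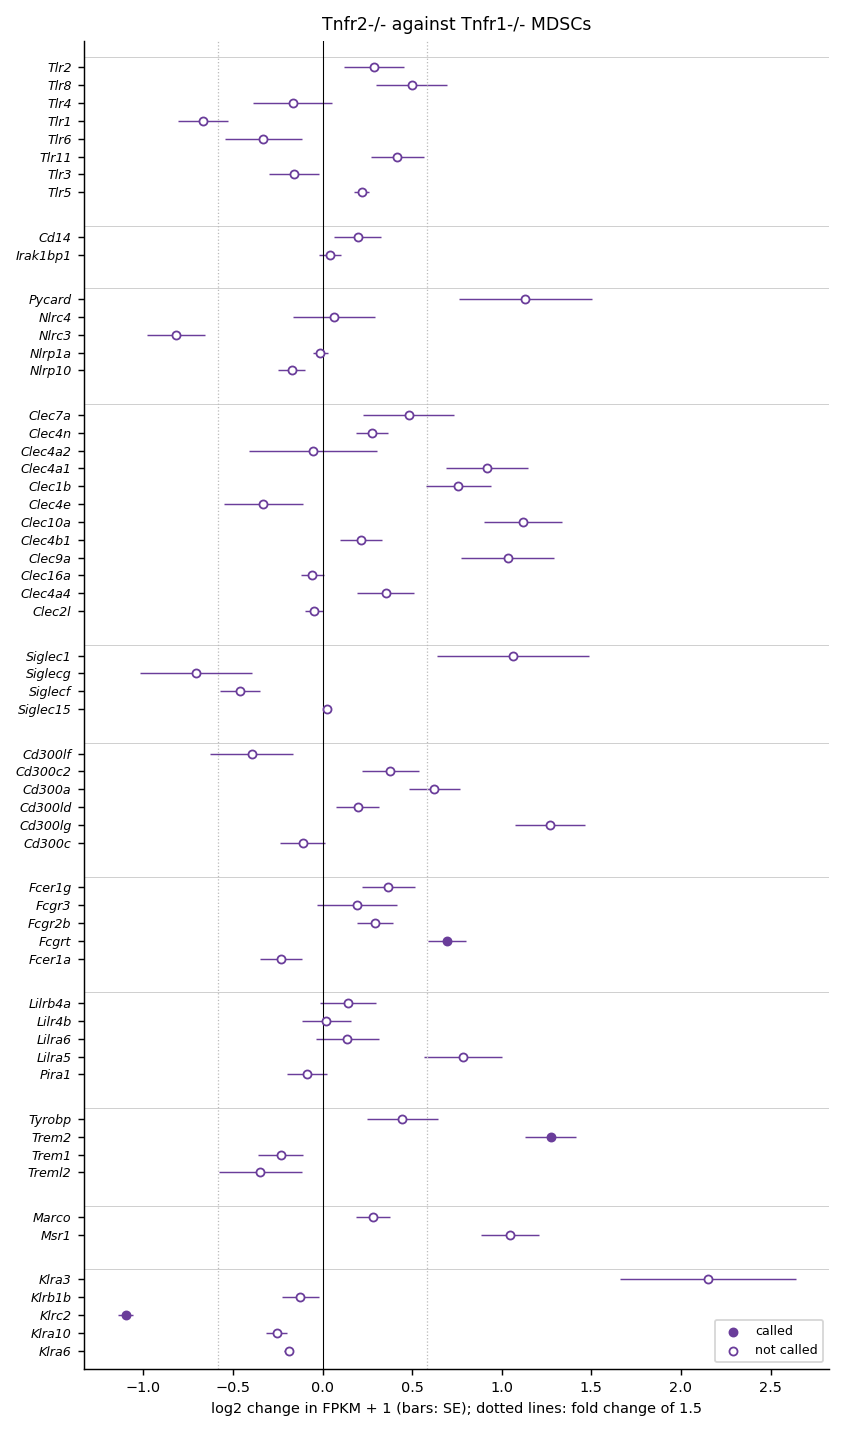
Change of each of the 58 genes in *Tnfr2*-/- against *Tnfr1*-/- MDSCs as the difference in log2(FPKM + 1) (x axis) with its SE, 2 samples per genotype, with filled points for called genes and dotted lines at a fold change of 1.5. The points lie between -1.10 (*Klrc2*) and 2.15 (*Klra3*, not called), and 3 are filled.

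Over the group means, 28 of the 58 genes were ordered WT, *Tnfr2*-/-, *Tnfr1*-/- from high to low, 11 were ordered WT, *Tnfr1*-/-, *Tnfr2*-/-, 9 were highest in *Tnfr1*-/- and lowest in WT, and 8 were highest in *Tnfr2*-/- and lowest in WT. For 55 of the 58 genes the *Tnfr1*-/- and *Tnfr2*-/- levels were not called different. *Klrc2* and *Klra6* had WT in the middle. *Msr1* (1.05, adjusted p = 0.0507), *Clec10a* (1.12, adjusted p = 0.0698), and *Tlr1* (-0.67, adjusted p = 0.0750) were among the genes that missed the threshold between the knockouts, and they were chosen after their values were seen.

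Genes of the same pathways that do not carry the symbols of the rule were taken from lists. Of 42 genes of TLR and NOD-like receptor signalling 20 were listed, and 4 rose and 9 fell in *Tnfr2*-/- MDSCs, or 8 rose and 2 fell after median-ratio scaling. The shares over all genes were 13.6% higher and 57.1% lower as deposited and 21.8% and 21.0% after median-ratio scaling, and they apply to the following lists as well. *Nfkbia*, the inhibitor of NF-kB that is itself an NF-kB target, was at 68.9 and 71.2 FPKM in WT, 202 and 213 FPKM in *Tnfr1*-/-, and 100.2 and 146 FPKM in *Tnfr2*-/- samples. *Cd36*, a co-receptor of TLR2 and a fatty acid transporter, was at 162 and 162 FPKM in WT, 1.85 and 2.70 FPKM in *Tnfr1*-/-, and 2.54 and 6.33 FPKM in *Tnfr2*-/- samples. Of 15 inflammasome genes 7 were listed, with 2 higher and 4 lower in *Tnfr2*-/- MDSCs, or 3 higher and 1 lower after median-ratio scaling, among them *Mefv* (pyrin), with a change of 3.96, and *Il18*, with -3.49. Of 35 ITAM and ITIM signalling genes 20 were listed, and 10 rose and 6 fell in *Tnfr2*-/- MDSCs, or 12 and 4 after median-ratio scaling. The kinase gene *Syk*, which acts below DAP12 and the Fc gamma chain, rose from 39.3 and 37.8 FPKM (WT) to 79.3 and 87.3 FPKM in *Tnfr1*-/- and 83.4 and 70.5 FPKM in *Tnfr2*-/- samples, while *Card9*, which carries Dectin and Mincle signals, fell from 53.9 and 47.8 FPKM to 16.8 and 14.9 FPKM and 19.2 and 16.4 FPKM, a fall that was not called after median-ratio scaling (-0.50 in *Tnfr2*-/-).

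Promoter sequences are shown for the genes whose opposite changes stood out, the neighbours *Trem1* and *Trem2*, and for the rising genes *Clec4e*, *Lilra6*, and *Tlr1*. Each is the 300 bases around a transcript start, most of them upstream, in RefSeq on GRCm38.p6, written 5′ to 3′ on the strand of the gene, with the motifs searched in capitals. Coordinates are chr17:48232489-48232788 (plus strand) for *Trem1*, chr17:48346151-48346450 (plus strand) for *Trem2*, chr6:123289822-123290121 (minus strand) for *Clec4e*, chr7:3915452-3915751 (minus strand) for *Lilra6*, and chr5:64933509-64933808 (minus strand) for *Tlr1*. The motifs were GAGGAAGT (PU.1), TTNNGCAA (C/EBP), and TGANTCA (AP-1), read on both strands, where a lower-case window holds none of them.
Trem1: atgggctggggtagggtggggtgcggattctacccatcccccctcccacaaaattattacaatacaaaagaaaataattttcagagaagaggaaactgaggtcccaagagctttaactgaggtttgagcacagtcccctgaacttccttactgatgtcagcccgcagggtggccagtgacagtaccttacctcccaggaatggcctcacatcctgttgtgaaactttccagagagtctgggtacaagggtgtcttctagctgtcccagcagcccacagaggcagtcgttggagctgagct
Trem2: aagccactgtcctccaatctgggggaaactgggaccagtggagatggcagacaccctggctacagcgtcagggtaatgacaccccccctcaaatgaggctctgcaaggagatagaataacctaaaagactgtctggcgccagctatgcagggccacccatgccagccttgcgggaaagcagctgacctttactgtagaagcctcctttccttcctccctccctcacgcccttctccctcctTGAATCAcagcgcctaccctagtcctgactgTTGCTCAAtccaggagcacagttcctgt
Clec4e: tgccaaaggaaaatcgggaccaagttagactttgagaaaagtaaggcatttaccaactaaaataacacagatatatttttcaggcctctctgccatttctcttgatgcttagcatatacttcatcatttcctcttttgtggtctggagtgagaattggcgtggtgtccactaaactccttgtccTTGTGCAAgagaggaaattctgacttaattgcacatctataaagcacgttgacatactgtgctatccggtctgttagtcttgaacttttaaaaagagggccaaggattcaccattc
Lilra6: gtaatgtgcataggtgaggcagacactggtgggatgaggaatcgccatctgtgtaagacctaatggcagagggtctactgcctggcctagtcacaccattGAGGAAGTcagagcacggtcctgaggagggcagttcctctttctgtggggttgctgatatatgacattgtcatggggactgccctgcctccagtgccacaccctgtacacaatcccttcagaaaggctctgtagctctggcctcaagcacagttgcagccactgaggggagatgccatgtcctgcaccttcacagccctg
Tlr1: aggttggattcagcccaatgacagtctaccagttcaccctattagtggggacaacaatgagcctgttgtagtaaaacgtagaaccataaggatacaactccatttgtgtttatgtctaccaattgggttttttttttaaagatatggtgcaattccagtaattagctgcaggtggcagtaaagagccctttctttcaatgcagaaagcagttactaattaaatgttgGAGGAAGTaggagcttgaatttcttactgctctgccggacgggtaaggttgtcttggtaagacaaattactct
Of the 58 genes 45 had such a window. GAGGAAGT was in those of 8 genes (17.8%, against 3.69% of 27025 genes with a window): *Cd300ld*, *Cd300lf*, *Lilra6*, *Nlrp1a*, *Pira1*, *Pycard*, *Tlr1*, and *Tlr11*, which include genes that rose and genes that fell. TTNNGCAA was in those of 17 genes (37.8%, against 12.2% of all), *Trem2* and *Clec4e* among them, and TGANTCA in those of 3 genes (6.67%, against 8.97%). A match only describes the letters of these windows. *Tlr1* has another start whose window holds none of the motifs.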

How the data were processed

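Splenic MDSC mRNA of 6 samples, 2 each of WT, *Tnfr1*-/-, and *Tnfr2*-/- mice, was sequenced with single-end reads of 50 bases. The authors deposited 1 FPKM value per gene and sample. The processing notes name FastQC, edgeR, and the build mm10, while the aligner and the tool that made the FPKM are not given in the sources used here. A deposited p-value column holds the authors' ANOVA over the genotypes for each gene, and its values were not used. Only genes with such a p-value of at most 0.05 are listed, 8191 in all. Depth is unknown, so no counting interval is given, and 0 columns of sample values were left unused. Samples were grouped by their titles.

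FPKM values were analysed as log2(FPKM + 1) in R 4.3.3 with the package limma 3.58.1 (a linear model with contrasts and moderated variances that follow a trend), two-sided, with all 6 samples in 1 model and Benjamini-Hochberg adjustment over the 8191 genes. The script was tested on simulated data. An exact permutation test of 2 against 2 samples cannot give a two-sided p below 0.333, so none is given. The members and gene lists were chosen with earlier results of these data known. Full statistics were given for the 3 members of each family with the highest mean FPKM, members called between the knockouts, and the 3 largest rises and 3 largest falls in *Tnfr2*-/- against WT MDSCs among called genes without overlap, and also for *Tlr1*, *Tlr5*, and *Clec4e*, which were chosen after their values were seen. Other members were given by values, counts, and ranges. Alternatives were a pseudocount of 0.1, a mean of at least 1 FPKM, only the 2 genotypes compared, median-ratio size factors, a replicate block, quantile normalization, eBayes without trend, adjustment as for 25000 genes, a fold change over 2, and each sample left out in turn. Symbols of 57 members matched GENCODE annotation of GRCm38 (the mm10 assembly), and *Pira1* did not. The share of 50-base windows of a gene's transcripts found in other genes was computed from the same annotation. Promoters were from RefSeq. Python 3.11.15, NumPy 2.4.6, pandas 2.3.3, and matplotlib 3.10.9 were used.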

Additional observations from a re-analysis of the deposited data

How the results depend on the processing

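Scaling mattered most for the comparisons with WT. The number of members lower in *Tnfr2*-/- than in WT MDSCs went from 35 to 22 after scaling by median-ratio size factors and to 21 after quantile normalization, while the median change of the members went from -1.07 to -0.314 and -0.37, and in *Tnfr1*-/- MDSCs from -1.28 to -0.428 under both. The median was -1.32 (*Tnfr2*-/-) and -1.59 (*Tnfr1*-/-) with a pseudocount of 0.1 and -1.24 and -1.58 for a mean of at least 1 FPKM. Signs turned for *Cd300a* in *Tnfr2*-/- against WT (0.807 with median-ratio size factors, 0.634 when quantile normalized) and in *Tnfr1*-/- against WT (0.322 and 0.163), for *Tlr4* in *Tnfr2*-/- (0.0129 with median-ratio size factors) and in *Tnfr1*-/- (0.321 and 0.142), for *Cd300lf* in *Tnfr2*-/- (0.0001444 with median-ratio size factors), for *Klrc2* in *Tnfr2*-/- (0.0211 with quantile normalization), and for *Nlrc3* in *Tnfr2*-/- (-0.0129 without *Tnfr2*-/- replicate 1 and up to 0.32 without replicate 2). Of 69 pairs of a named gene and a comparison, 62 kept their sign under all alternatives. The causes of these changes were not tested beyond the shift of all genes given with the scaling.

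Members higher in *Tnfr2*-/- than in *Tnfr1*-/- MDSCs numbered 2, and 6 for a mean of at least 1 FPKM, 4 with quantile normalization, 1 with a fold change over 2, and 0 with only the 2 genotypes compared, with eBayes without trend, and with adjustment as for 25000 genes. In the settings named here with 0, in that order, limma gave 20, 25, and 23 members an unadjusted p under 0.05, beside 1436, 2023, and 1962 of all 8191 genes. Leaving out a sample gave 0 to 8, with 8 without *Tnfr2*-/- replicate 1, 1 without *Tnfr2*-/- replicate 2, and 0 without any 1 of the other samples. Members lower there numbered 1, and 2 under quantile normalization or median-ratio size factors, 0 with only the 2 genotypes compared, and 0 to 2 when a sample was left out. The median change between the knockouts was 0.169, against 0.0458 with median-ratio size factors, 0.0511 with quantile normalization, and 0.0682 without *Tnfr1*-/- replicate 1. Without a sample, members higher and lower than WT numbered 14 to 15 and 30 to 35 in *Tnfr2*-/- and 14 to 16 and 32 to 36 in *Tnfr1*-/- MDSCs. Beside *Tyrobp*, named genes whose limma calls against WT ended without 1 sample were *Tlr4* and *Nlrc4* in both knockouts (without either WT sample, adjusted p from 0.0502 to 0.0886), *Pycard*, *Cd300lf*, and *Klra3* in *Tnfr2*-/- MDSCs (without either WT sample, adjusted p from 0.0544 to 0.137, and *Klra3* also without either *Tnfr1*-/- sample), *Nlrc4* without *Tnfr2*-/- replicate 1 (-0.57), and *Tlr4* (-0.57) and *Cd300a* (-0.58) in *Tnfr1*-/- MDSCs without *Tnfr1*-/- replicate 1.

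With the replicate number as a block, 0 members were higher and 1 was lower between the knockouts, and 14 rose and 35 fell in *Tnfr2*-/- against WT MDSCs, where *Tyrobp* was not called (adjusted p = 0.0526). The difference between replicates 1 and 2 correlated across genes with r = 0.0217, 0.0299, and 0.0462 between the genotypes, so little of it was shared. Whether the replicate numbers stand for the 2 experiments is not stated, so a pairing of the samples remains possible. The unknown depth and 2 samples per genotype limit the values near 0 FPKM.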

Other observations

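Other marker lists moved as follows. The 5 of 10 monocyte markers listed summed to 247 to 261 FPKM (WT), 263 to 315 FPKM (*Tnfr1*-/-), and 571 to 647 FPKM in *Tnfr2*-/- MDSCs. Most of the WT sum was *Csf1r*, at 225 and 238 FPKM, against 71.3 and 92.6 FPKM in *Tnfr1*-/- and 137 and 171 FPKM in *Tnfr2*-/- samples. It was called lower in both knockouts as deposited and in neither after median-ratio scaling. The other 4 (*Ccr2*, *Cx3cr1*, *Fn1*, and *F13a1*) were called higher than WT in each knockout. The 5 of 10 T cell markers listed summed to 37.4 to 42.0 FPKM (WT), 62.4 to 81.5 FPKM (*Tnfr1*-/-), and 32.0 to 34.3 FPKM in *Tnfr2*-/- MDSCs. Members of this list moved in opposite directions. *Cd4* fell in both knockouts, from 24.2 and 25.7 FPKM in WT to 3.86 and 4.56 FPKM in *Tnfr2*-/- samples. *Cd3d* and *Tcf7* rose in both, while *Cd3g* and *Cd5* were not called in *Tnfr2*-/- MDSCs as deposited. *Tfrc*, the 1 erythroid marker listed of 9, stood at 18.3 to 19.9 FPKM (WT), 6.27 to 9.14 FPKM (*Tnfr1*-/-), and 6.24 to 8.12 FPKM in *Tnfr2*-/- MDSCs.

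The 57 receptor and adaptor genes with a position lay on 16 chromosomes, 15 of them on chromosome 6 and 8 each on chromosomes 7 and 11. Calls within groups of neighbours are given here for *Tnfr2*-/- against WT MDSCs. They stand beside 13.6% of all genes called higher and 57.1% lower as deposited, and 21.8% and 21.0% after median-ratio scaling. On chr11:114890041-115133992, 4 of 5 Cd300 genes fell and none rose as deposited, whereas after median-ratio scaling 2 fell (*Cd300c* and *Cd300c2*) and *Cd300a* rose (0.81). On chr1:170958617-171234365, *Fcgr2b*, *Fcgr3*, and *Fcer1g* all fell as deposited, and none was called after median-ratio scaling. On chr6:128813706-130337574, 5 of 8 Clec and Klr genes fell and none rose as deposited, and 3 fell after median-ratio scaling, where *Clec9a* and *Klra3* were not called. On chr7:43351341-43418358, *Siglecg* rose and *Siglecf* fell, and on chr7:3908280-4243463 *Lilra6* rose and *Lilra5* fell.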
